A study of Bos taurus with 17 samples.

Results

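Cells grown for 21 days on the smart scaffold, a cellulose scaffold carrying attached growth factors, were compared with cells grown for 21 days on plastic. The cells, from bovine umbilical cord, are labelled mesenchymal stem cells: stromal cells in primary culture that can form several connective tissues. The comparison holds 5 of the 17 samples the labels describe, 3 from the smart scaffold and 2 from plastic, and it covers 10907 of the 12894 genes in the table, namely those averaging at least 5 over these 5 libraries. The gene just inside that minimum had a mean of 5.00 and AGAP1, just outside it, a mean of 4.99. Another 4 libraries, from the same kind of scaffold with the growth factors in the medium (the media scaffold), served to test where the smart scaffold stood apart from it.

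All 3 groups received the same base medium: DMEM/F-12 with low serum, insulin, transferrin and selenium, albumin, dexamethasone, ascorbic acid 2-phosphate, glutamine and antibiotics. VEGF, IGF and FGF were bound to the smart scaffold and absent from its medium, whereas they were dissolved in the medium of the media scaffold and of the plastic cultures. Substrate and way of growth factor supply therefore both differ between smart scaffold and plastic and cannot be told apart in that comparison. Libraries within a group are biological replicates according to the design text, which names no donor animals. The cells are primary and not a cloned line.

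Umbilical cord stromal cells make much of the collagenous matrix of the cord and carry a contractile actin apparatus resembling that of myofibroblasts. IGF acts through IGF1R and is held or released by its binding proteins, FGF drives the ERK kinase pathway, whose targets include the feedback inhibitors of the Sprouty and DUSP families, and VEGF acts mainly on endothelial cells. MARS-seq, the assay used, counts the 3′ ends of polyadenylated transcripts, so it measured the RNA the cells made and not the growth factor protein supplied to them.

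Values are normalized reads, that is, reads divided by a scaling factor for each library. The smart scaffold libraries held 4315324, 8258530 and 6443647 reads, and the plastic libraries 5264578 and 2197356. Accordingly 1 read was worth 1.65, 0.868 and 1.15 normalized reads on the smart scaffold and 1.38 and 3.44 on plastic, so low values were measured least finely in the second plastic library. Across genes, smart scaffold replicates correlated at 0.981 to 0.986 and the plastic pair at 0.962. On the first principal component of all libraries (52.3% of the variance) the smart scaffold libraries lay at 56.6 to 58.6, the media scaffold libraries at 63.3 to 64.7 and the plastic libraries of day 21 at 3.35 and 14.4. On the second (29.1%) the smart scaffold libraries lay at −28.0 to −27.2, the media scaffold libraries at −18.0 to −14.7 and the plastic libraries of day 21 at 104 and 127. These are bulk samples, so fewer cells of a type and less RNA per cell cannot be told apart.

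Of the 10907 genes, 4144 (38%) were called, 2335 of them higher on the smart scaffold (21.4%) and 1809 lower (16.6%). Counts of list members below are to be set beside these shares. A call required an adjusted p under 0.05 and a log2 fold change of at least 1 on the log2(value + 1) scale, in a limma fit with Benjamini-Hochberg adjustment; errors after ± of a log2 fold change are its SE. The median log2 fold change of all tested genes was −0.0048. Smart scaffold and plastic libraries were fully separated for 73.8% of all tested genes and for 4094 of the 4144 called ones. No reads at all were counted on plastic for 57 genes called higher and none on the smart scaffold for 22 called lower. The minimum mean was reached through the plastic libraries alone by 473 tested genes and through the smart scaffold libraries alone by 433. For these genes the direction of the difference follows from having passed and is no separate result. Among list members named below, this holds for the falls of CD34, NYX, STC1, TEK, TNFAIP2 and TNNT3, among others. It also holds for the rises of BIRC3, FGF9, FOXF2, HK2, IGF1, ITGA11, KLB, MMP16 and MYF6, among others.

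**Figure D1:**
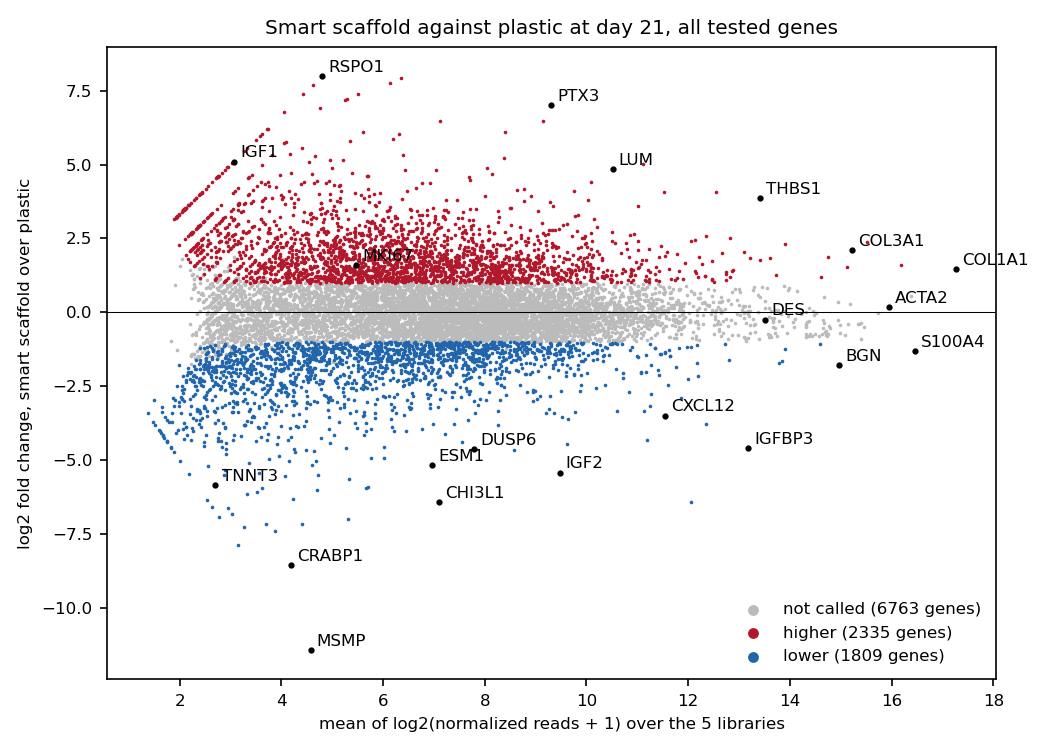
Log2 fold change, smart scaffold over plastic, against the mean of log2(normalized reads + 1) over the 5 libraries; each point is a tested gene, red where called higher (2335), blue where called lower (1809) and grey otherwise. Calls lie on both sides over most of the range, MSMP is the lowest point, and the straight lines of points at the left are genes with 0 reads in a group, whose fitted fold change depends on the added 1.

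The largest rises included matrix, signalling and muscle genes that were almost silent on plastic. RSPO1, a secreted amplifier of WNT signalling, had 165, 311 and 326 normalized reads in the smart scaffold libraries, against 0 and 0 in the plastic libraries, at least 95.6-fold higher against a floor of 3 reads over the plastic group. EYA2, a transcriptional coactivator, had 188, 219 and 216 on the smart scaffold, against 0 and 0 on plastic (at least 71.4-fold). CTSL, a lysosomal cysteine protease, had 150.2, 189 and 163 on the smart scaffold, against 0 and 0 on plastic (at least 58.1-fold). These genes had 0 reads in both plastic libraries and reads in every smart scaffold library. COMP, a cartilage and tendon matrix protein, had 92.4, 129 and 106 on the smart scaffold, against 0 and 0 on plastic (at least 38.3-fold). NKD1, an inhibitor of WNT signalling, had 228, 304 and 316 on the smart scaffold, against 2.76 and 0 on plastic, a read ratio of 147-fold (95% counting interval 40.7 to 1219). CASQ2, the calcium-storing calsequestrin of heart and slow muscle, had 234, 311 and 329.9 on the smart scaffold, against 2.76 and 0 on plastic, a ratio of 152-fold (95% counting interval 42.01 to 1259). The intervals cover counting error only.

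PTX3, a secreted pentraxin of innate immunity, had 4719.6, 4023 and 4646 on the smart scaffold, against 78.7 and 13.7 on plastic (log2 fold change 7.02 ± 0.52, adjusted p = 1.21e-08). Its plastic libraries differed severalfold from each other, and both lay far below every smart scaffold library. FNDC1, a fibronectin domain protein, had 3019, 3949 and 3291 on the smart scaffold, against 31.7 and 44.7 on plastic (log2 fold change 6.46 ± 0.18, adjusted p = 5.55e-14). HSPB7, a small heat shock protein of muscle, had 801, 919 and 776 on the smart scaffold, against 6.90 and 10.3 on plastic (log2 fold change 6.46 ± 0.18, adjusted p = 5.33e-14). The tetraspanin TSPAN13 had 713, 764 and 743 on the smart scaffold, against 8.28 and 0 on plastic (log2 fold change 7.93 ± 0.68, adjusted p = 1.17e-07). C1QTNF3, a secreted adiponectin relative, had 507, 640.3 and 691 on the smart scaffold, against 0 and 6.87 on plastic, a ratio of 318-fold (95% counting interval 87.9 to 2628). LGI2 and the glycosyltransferase GALNT15 completed the 12 largest rises (HSPB7 is not among them), at ratios of 386-fold (95% counting interval 69.1 to 15247) and 191-fold (95% counting interval 34.2 to 7569.9). For these genes too the lowest smart scaffold library exceeded the highest plastic library. For the 12 largest rises this separation was a condition of being named. All of them but PTX3 and FNDC1 averaged under 5 on plastic and passed the minimum mean through the smart scaffold alone. The direction of their change follows from having passed it.

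MSMP, a secreted microseminoprotein, fell furthest on the fitted scale: it had 0, 0 and 0 normalized reads in the smart scaffold libraries, against 3227 and 2374 in the plastic libraries, at least 2613-fold lower. CRABP1, which binds retinoic acid in the cytosol, had 1.65, 0.868 and 0 on the smart scaffold, against 711 and 581 on plastic, a ratio of 885-fold (95% counting interval 244 to 7323) lower. CLEC14A, a lectin of endothelial cells, had 0, 0 and 1.15 on the smart scaffold, against 237 and 162 on plastic, a ratio of 567-fold (95% counting interval 101 to 22487) lower. All 3 were at or within a few reads of 0 on the smart scaffold and high in both plastic libraries. The neuropeptide genes TAC3 and SST fell as well. TAC3 had 1.65, 0 and 1.15 on the smart scaffold, against 297 and 223 on plastic, a ratio of 362-fold (95% counting interval 99.4 to 3006) lower, and SST, which encodes somatostatin, had 4.95, 8.68 and 2.30 on the smart scaffold, against 602 and 876 on plastic (log2 fold change −6.98 ± 0.40, adjusted p = 3.4e-10). CHI3L1, a secreted chitinase-like glycoprotein, had 21.5, 24.3 and 20.7 on the smart scaffold, against 2203 and 1801 on plastic (log2 fold change −6.43 ± 0.32, adjusted p = 4.98e-11). A2M, a protease trap of plasma and tissue, had 0, 0 and 0 on the smart scaffold, against 105 and 61.9 on plastic, at least 81.1-fold lower. The matrix protease ADAMTS15 (−7.15), TP53I11 (at least 100.1-fold lower), TMEM190 (−6.31) and the calcium-binding S100A1 (read ratio 116-fold (95% counting interval 39.01 to 572) lower) complete the list with M-SAA3.2, described with SAA3 below.

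The structural matrix genes did not move as a block. Of 17 tested collagens, 7 rose and 4 fell (median log2 fold change 0.05). COL1A1, the main chain of type I collagen, had 235560, 210886 and 260015 normalized reads in the smart scaffold libraries, against 73456 and 100136 in the plastic libraries (log2 fold change 1.45 ± 0.12, adjusted p = 1.63e-08). Under quantile normalization its log2 fold change was 0.65 and the call was lost. COL1A2, its partner chain, had 83886, 95099 and 95942 on the smart scaffold, against 20896 and 14515 on plastic (log2 fold change 2.39 ± 0.14, adjusted p = 3.4e-10). COL3A1, of type III collagen, had 64099, 65832 and 77460.3 on the smart scaffold, against 21961 and 11597 on plastic (log2 fold change 2.11 ± 0.22, adjusted p = 3.87e-07). COL11A1, a chain of the cartilage type collagen XI, had the largest rise on the list, with 5151, 5323 and 6427 on the smart scaffold, against 511 and 416 on plastic (log2 fold change 3.60 ± 0.18, adjusted p = 4.98e-11). COL1A1, COL1A2, COL3A1 and COL11A1 were higher in every smart scaffold library than in both plastic libraries. Of all tested genes 73.8% were separated in this way, and COL1A2 and COL3A1 were named on that condition. COL6A3, of the microfibrillar collagen VI, went the other way, with 34.7, 36.4 and 37.9 on the smart scaffold, against 298 and 395 on plastic (log2 fold change −3.21 ± 0.21, adjusted p = 1.48e-09), and COL6A2 (−1.18), COL14A1 (−1.68) and COL5A3 (−2.43) fell with it.

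Enzymes that modify and crosslink collagen were more often higher than lower: 7 of 21 rose and 2 fell (median 0.30). PLOD2, which hydroxylates the lysines of collagen telopeptides, had 1354, 1163 and 1276 on the smart scaffold, against 62.1 and 79.03 on plastic (log2 fold change 4.15 ± 0.31, adjusted p = 6.76e-09). The lysyl oxidases LOX (2.21) and LOXL4 (2.28), the prolyl hydroxylase subunits P4HA1 (1.22), P4HA2 (1.09) and P4HA3 (1.32) and the collagen chaperone SERPINH1 (1.47) also rose. LOXL1, a lysyl oxidase tied to elastic fibres, had 1161, 1032 and 867 on the smart scaffold, against 9645 and 8553 on plastic (log2 fold change −3.16 ± 0.25, adjusted p = 1.31e-08), and the procollagen protease BMP1 fell (−1.57).

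Matricellular proteins, which bind matrix and cell receptors without being structural fibres, were the matrix list with the most rises: 11 of 18 rose and 3 fell (median 1.57, against −0.0048 for all genes). THBS1, thrombospondin 1, had 31319, 33371 and 31439.7 on the smart scaffold, against 2991 and 1584 on plastic (log2 fold change 3.88 ± 0.25, adjusted p = 1.25e-09). SPARC, a collagen-binding glycoprotein, had 114955, 104656 and 131587 on the smart scaffold, against 38709 and 37953 on plastic (log2 fold change 1.60 ± 0.11, adjusted p = 2.97e-09). FN1, fibronectin, had 52261, 53910.3 and 57287 on the smart scaffold, against 21713 and 16188 on plastic (log2 fold change 1.54 ± 0.12, adjusted p = 1.09e-08). In each case the groups stood apart, as they did for 73.8% of all tested genes, and SPARC and FN1 were named on that condition. SMOC2 (3.48), THBS4 (3.24), SMOC1 (2.62), tenascin TNC (1.85), CTGF (1.83) and periostin POSTN (1.31) rose too. TGFBI, an integrin-binding matrix protein, had 162, 148 and 152 on the smart scaffold, against 690.044 and 615 on plastic (log2 fold change −2.08 ± 0.20, adjusted p = 1.51e-07), and the large proteoglycan VCAN (−2.46) and WISP2 (−1.92) also fell.

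The small leucine-rich proteoglycans, which sit on collagen fibrils, split into 4 higher and 3 lower of 11. LUM, lumican, had 4735, 5462 and 6774 on the smart scaffold, against 249.8 and 151 on plastic (log2 fold change 4.84 ± 0.25, adjusted p = 9.72e-11), and decorin DCN rose (1.75). BGN, biglycan, had 20159.6, 21187 and 17858 on the smart scaffold, against 66973 and 67976 on plastic (log2 fold change −1.78 ± 0.14, adjusted p = 1.56e-08), and NYX fell (−2.72). Both plastic libraries held more BGN than any smart scaffold library, whereas for LUM the order was the opposite. Separation of this kind was seen for 73.8% of all tested genes, and BGN was named on that condition.

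Elastic fibre genes were divided as well, with 6 of 18 higher and 8 lower. EMILIN2, an elastin-interface glycoprotein, had 97.4, 102 and 109 on the smart scaffold, against 5.52 and 6.87 on plastic (log2 fold change 3.85 ± 0.28, adjusted p = 6.04e-09). Elastin itself, ELN, had 30327, 30739.7 and 26273 on the smart scaffold, against 6635 and 5048 on plastic (log2 fold change 2.33 ± 0.23, adjusted p = 1.49e-07). MFAP5, a microfibril-associated glycoprotein, had 225, 293 and 259 on the smart scaffold, against 2546 and 2900.2 on plastic (log2 fold change −3.40 ± 0.21, adjusted p = 5.55e-10). LTBP2, a latent TGF-beta binding protein of microfibrils, had 395, 383 and 271 on the smart scaffold, against 2659 and 4735 on plastic (log2 fold change −3.36 ± 0.21, adjusted p = 6.95e-10). Thus elastin was higher on the smart scaffold while the fibrillins FBN1 (−1.39) and FBN2 (−2.84) and the fibulin FBLN1 (−2.80) were lower.

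Basement membrane genes mostly fell: 8 of 14 were lower and 2 higher (median −1.24). COL4A2, a chain of the network collagen IV, had 183, 132 and 482 on the smart scaffold, against 2382 and 2484 on plastic (log2 fold change −3.42 ± 0.43, adjusted p = 4.85e-06). COL18A1, the source of endostatin, had 1068, 839 and 789 on the smart scaffold, against 8589.7 and 9563 on plastic (log2 fold change −3.35 ± 0.21, adjusted p = 8.19e-10). The laminin chains LAMB3 (−3.05), LAMA4 (−1.26) and LAMB1 (−1.21), agrin AGRN (−2.68) and perlecan HSPG2 (−1.34) fell, and COL4A5 (1.79) and nidogen NID1 (1.76) rose. The third smart scaffold library held more COL4A2 than the others and still lay below both plastic libraries.

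**Figure D2:**
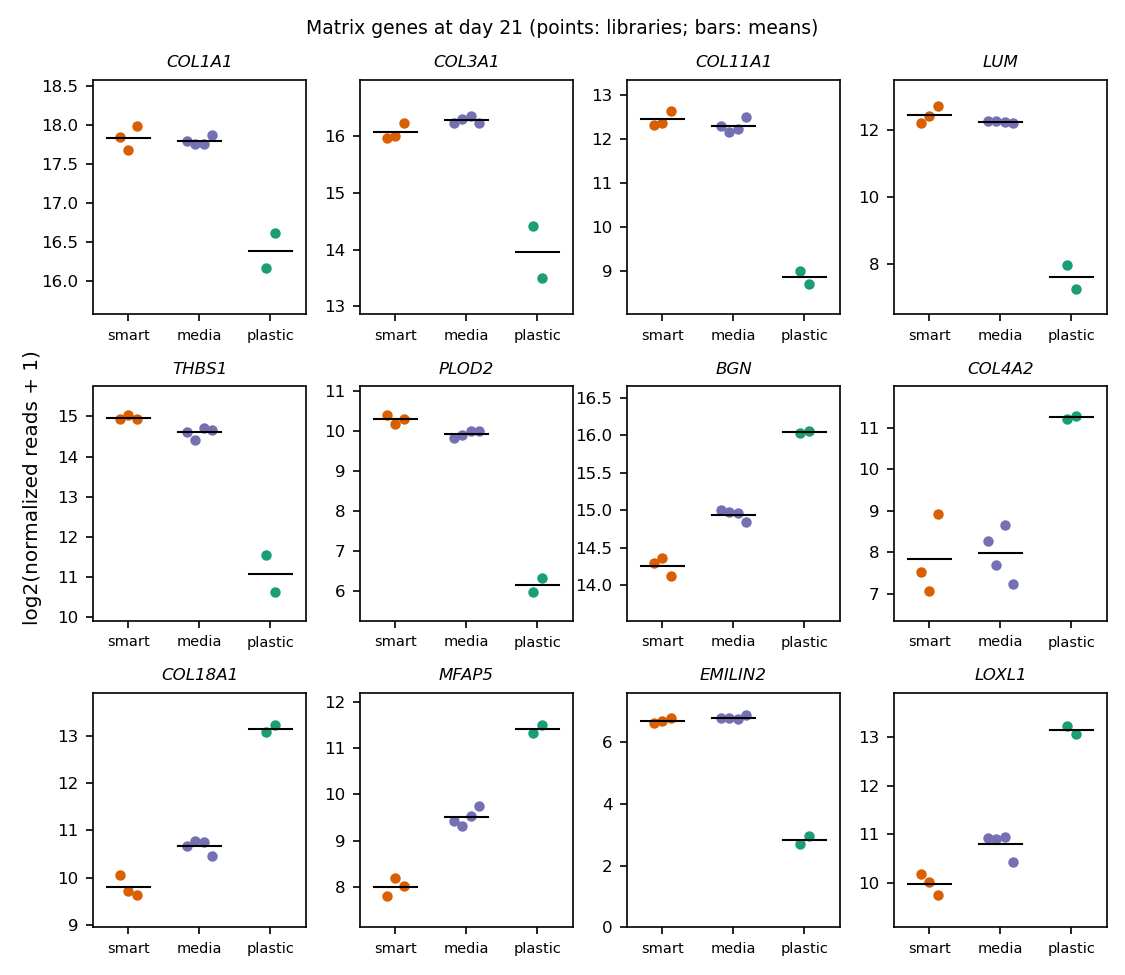
Log2(normalized reads + 1) of 12 matrix genes in each library of day 21, with the smart scaffold at the left, the media scaffold in the middle and plastic at the right; points are libraries and bars are group means, and each panel has its own vertical range. COL1A1, COL3A1, COL11A1, LUM, THBS1, PLOD2 and EMILIN2 sit above plastic on the smart scaffold, and BGN, COL4A2, COL18A1, MFAP5 and LOXL1 below it.

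Among metalloproteases and their inhibitors 5 of 16 rose and 2 fell. MMP16, a membrane-bound matrix metalloprotease, was near its detection limit on plastic, with 21.5, 12.1 and 10.3 on the smart scaffold, against 5.52 and 0 on plastic (log2 fold change 2.55 ± 0.55, adjusted p = 0.000657). The inhibitor SERPINE2 (−2.14) and the aggrecanase ADAMTS5 (−1.35) fell.

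The cells' own IGF axis differed in most of its members, with 3 of 13 higher and 7 lower. IGF1, the ligand, had 21.5, 41.6 and 41.4 normalized reads in the smart scaffold libraries, against 0 and 0 in the plastic libraries, at least 12.5-fold higher, in low numbers of reads. IGF2, the fetal ligand, had 122, 154 and 205 on the smart scaffold, against 6518 and 7009.9 on plastic (log2 fold change −5.42 ± 0.27, adjusted p = 6.32e-11). The ligands thus differed in opposite directions, and neither overlapped between the groups, as was so for 73.8% of all tested genes. The receptor IGF1R had 66.03, 73.7 and 63.2 on the smart scaffold, against 35.9 and 54.98 on plastic and was not called (log2 fold change 0.59 ± 0.25, adjusted p = 0.0465). IGF2R, which takes up IGF2 for degradation, had 1494, 1590.3 and 1648 on the smart scaffold, against 5587 and 6539 on plastic (log2 fold change −1.94 ± 0.11, adjusted p = 2.07e-10).

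IGFBP3, the main carrier of IGF in blood, showed the largest fall of the binding proteins, with 3371, 1909.6 and 2719.6 on the smart scaffold, against 60321 and 64533 on plastic (log2 fold change −4.59 ± 0.19, adjusted p = 5.73e-12). IGFBP5 had 199.7, 97.2 and 129.9 on the smart scaffold, against 853 and 1371 on plastic (log2 fold change −2.98 ± 0.23, adjusted p = 1.21e-08). IGFBP6, which prefers IGF2, had 1149, 1092 and 582 on the smart scaffold, against 2952 and 3873 on plastic (log2 fold change −1.91 ± 0.34, adjusted p = 0.000146). IGFBP7, a low-affinity relative, had 17716, 18265 and 19722 on the smart scaffold, against 38255 and 39015 on plastic (log2 fold change −1.06 ± 0.10, adjusted p = 6.63e-08); under quantile normalization it stood at −0.74 and was not called. All 4 were lower in each smart scaffold library than in either plastic library, while 73.8% of all tested genes were separated between the groups. IGFBP4, an inhibitory binding protein, had 7566, 7304 and 7022 on the smart scaffold, against 3682 and 2598 on plastic (log2 fold change 1.24 ± 0.20, adjusted p = 4.09e-05), a value of 0.99 and no call without the second plastic library. IGFBP2 had 13442, 12906 and 14747 on the smart scaffold, against 14496 and 11834 on plastic and overlapped between the groups (log2 fold change 0.06 ± 0.13, adjusted p = 0.69). HTRA1, a protease that cleaves binding proteins, had 10076, 10694 and 12189.9 on the smart scaffold, against 4184 and 4086 on plastic (log2 fold change 1.41 ± 0.16, adjusted p = 7.1e-07). The stanniocalcins, inhibitors of the protease that frees IGF from IGFBP4, were low: STC1 had 0, 0 and 1.15 on the smart scaffold, against 99.4 and 51.5 on plastic, a ratio of 225-fold (95% counting interval 39.4 to 8994) lower, and STC2 had 0, 4.34 and 8.05 on the smart scaffold, against 12.4 and 3.44 on plastic and was not called (log2 fold change −1.08 ± 0.70, adjusted p = 0.183), with −1.74 and a call without the third smart scaffold library.

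Of 9 tested FGF ligands and receptors, 4 rose and 1 fell (44.4% and 11.1%, against 21.4% and 16.6% of all genes). KLB, the co-receptor for endocrine FGFs, had 33.02, 21.7 and 22.99 normalized reads in the smart scaffold libraries, against 0 and 0 in the plastic libraries, at least 8.37-fold higher. FGF9 had 14.9, 15.6 and 19.5 on the smart scaffold, against 1.38 and 0 on plastic, a ratio of 17.00-fold (95% counting interval 2.90 to 687). KLB and FGF9 reached the minimum mean through the smart scaffold libraries alone, so the direction of their change follows from having passed it. FGFR2 had 42.9, 32.97 and 31.04 on the smart scaffold, against 5.52 and 6.87 on plastic (log2 fold change 2.34 ± 0.31, adjusted p = 4.92e-06). FGFR1, the main receptor of mesenchymal cells, had 117, 54.7 and 103 on the smart scaffold, against 316 and 471 on plastic (log2 fold change −2.13 ± 0.35, adjusted p = 5.2e-05). The receptors thus differed in opposite directions. FGF10 had 145, 95.4 and 117 on the smart scaffold, against 91.1 and 17.2 on plastic (log2 fold change 1.54 ± 0.48, adjusted p = 0.00968); its call rested on the second plastic library, without which the log2 fold change was 0.36, and it was below 1 in edgeR (0.90) and DESeq2 (0.96). FGF2 had 264, 268 and 231 on the smart scaffold, against 254 and 206 on plastic, FGF5 had 18.2, 15.6 and 8.05 on the smart scaffold, against 16.6 and 10.3 on plastic, FGF7 had 21.5, 22.6 and 20.7 on the smart scaffold, against 15.2 and 34.4 on plastic and FGF18 had 18.2, 17.4 and 24.1 on the smart scaffold, against 23.5 and 13.7 on plastic. These 4 ligands overlapped between the groups and were not called (adjusted p = 0.611, 0.975, 0.845 and 0.691).

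Genes that FGF and ERK signalling induce, among them its feedback inhibitors, were more often lower: 8 of 16 fell and 3 rose (median −1.01). DUSP6, the phosphatase that switches off ERK, had 59.4, 66.8 and 55.2 normalized reads in the smart scaffold libraries, against 1309.7 and 1718 in the plastic libraries (log2 fold change −4.61 ± 0.18, adjusted p = 2.3e-12). SPRY1, a Sprouty inhibitor, had 77.6, 65.1 and 65.5 on the smart scaffold, against 909 and 505 on plastic (log2 fold change −3.27 ± 0.24, adjusted p = 6.2e-09). SPRY2 (−2.15), SPRY4 (−2.06), the ETS factors ETV1 (−2.85) and ETV5 (−2.87), DUSP4 (−1.19) and cyclin D1, CCND1 (−2.45), were also lower. Members that rose were SPRED1 (1.57), FOSL1 (1.40) and FOS (1.18), the FOS genes being immediate early genes with many inducers.

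In the VEGF axis 1 of 14 members rose and 4 fell. VEGFA had 64.4, 69.4 and 48.3 on the smart scaffold, against 40.02 and 37.8 on plastic, VEGFB had 946, 892 and 919.6 on the smart scaffold, against 934 and 997 on plastic and VEGFC had 304, 309.7 and 314 on the smart scaffold, against 635 and 560.1 on plastic. No VEGF ligand reached the call, with log2 fold changes of 0.61 for VEGFA, −0.07 for VEGFB and −0.95 for VEGFC (adjusted p = 0.0223, 0.545 and 3.65e-05), though VEGFC reached −1.04 and the call without the second plastic library. VEGFD had 11.6, 2.60 and 5.75 on the smart scaffold, against 17.9 and 10.3 on plastic and overlapped (log2 fold change −1.12, adjusted p = 0.0721), a value of −1.57 and a call without the first smart scaffold library. It was also called under quantile normalization (adjusted p = 0.0485) and without trended and robust variances (0.041). The placental growth factor PGF had 49.5, 29.5 and 49.4 on the smart scaffold, against 20.7 and 27.5 on plastic (log2 fold change 0.78 ± 0.34, adjusted p = 0.0511), reaching 1.02 and the call without the second smart scaffold library. Of the co-receptors, NRP2 had 29.7, 33.8 and 39.1 on the smart scaffold, against 17.9 and 13.7 on plastic (log2 fold change 1.07 ± 0.22, adjusted p = 0.000437). Its call was lost without the second plastic (0.89) or the third smart scaffold library (0.97). NRP1 had 877, 778 and 732 on the smart scaffold, against 468 and 375 on plastic (log2 fold change 0.92 ± 0.18, adjusted p = 0.000309), with 1.08 and a call without the first plastic library.

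ESM1, a proteoglycan secreted by activated endothelium, had 23.1, 28.6 and 36.8 on the smart scaffold, against 1238 and 931 on plastic (log2 fold change −5.16 ± 0.21, adjusted p = 4.1e-12). ADM, the vasodilator adrenomedullin, had 1776, 1648 and 2101 on the smart scaffold, against 23547 and 26628 on plastic (log2 fold change −3.77 ± 0.13, adjusted p = 8.28e-13). Both were several times lower in every smart scaffold library. ANGPT2, the antagonist among the angiopoietins, had 33.02, 19.96 and 37.9 on the smart scaffold, against 137 and 127 on plastic (log2 fold change −2.13 ± 0.22, adjusted p = 3.19e-07). Its receptor TEK had 4.95, 3.47 and 1.15 on the smart scaffold, against 9.66 and 17.2 on plastic (log2 fold change −1.85 ± 0.70, adjusted p = 0.0283), a call lost without the second plastic library (adjusted p = 0.178), without the third smart scaffold library (0.106), in DESeq2 (0.0626), under array weights (0.16) and with a pseudocount of 0.5 (0.0696). ANGPT1 had 21.5, 25.2 and 31.04 on the smart scaffold, against 37.3 and 44.7 on plastic, ANGPTL2 had 1441, 1345 and 1192 on the smart scaffold, against 2549 and 2368 on plastic and ANGPTL4 had 64.4, 52.9 and 41.4 on the smart scaffold, against 51.1 and 61.9 on plastic, and none of these was called (adjusted p = 0.171, 7.43e-06 and 0.723). Beside these values, 4 endothelial markers were tested, of which ERG rose (1.49), VWF overlapped, and EGFL7 (−1.52) and TEK were lower; 5 in the table summed to 145 to 162 on the smart scaffold and 85.6 to 134 on plastic. EGFL7 lost its call without the second plastic library (adjusted p = 0.335) and without the first or the third smart scaffold library (0.0535 and 0.152). It also lost it in edgeR (0.0639), under array weights (0.226), with the replicate block (0.0525), with a pseudocount of 0.5 (0.0516), without trended and robust variances (0.0586) and in fits of fewer groups (0.0503 to 0.0832). PECAM1 and CDH5 were not analysed here, and the part of these markers in the result was not tested.

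**Figure D3:**
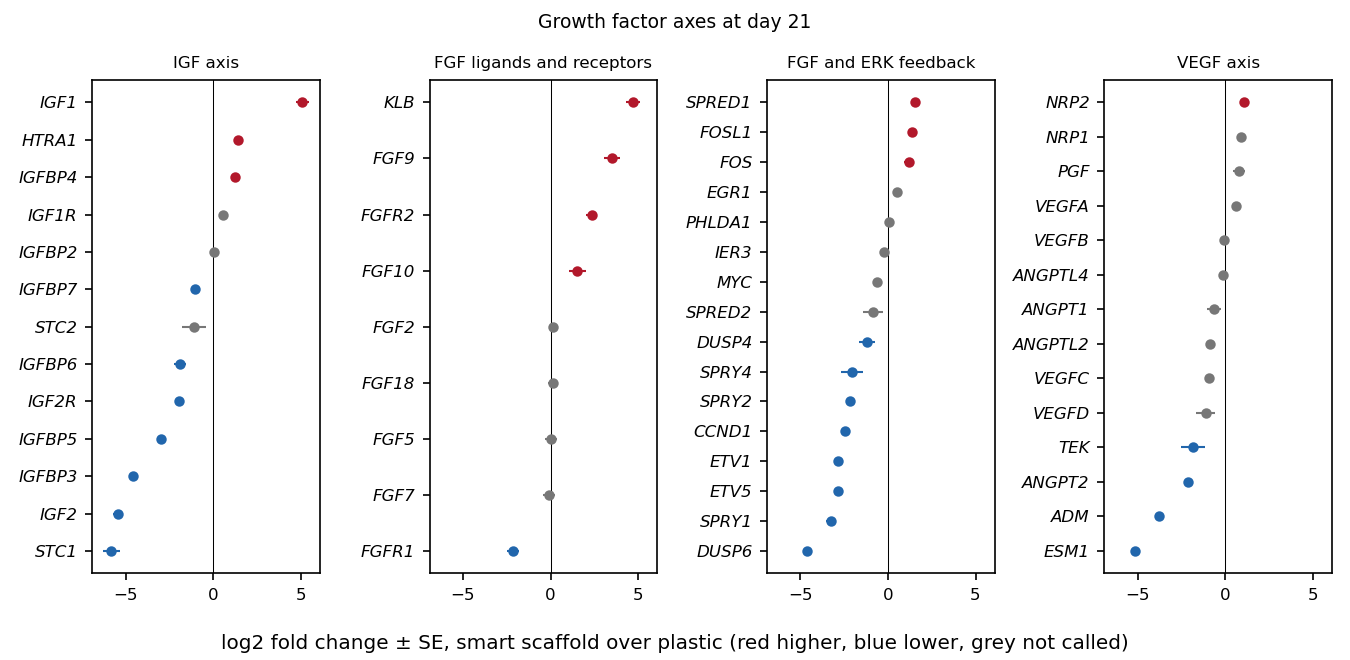
Log2 fold change ± SE from the limma fit, smart scaffold over plastic, for every tested member of 4 lists around the supplied growth factors, on a shared horizontal scale; red points were called higher, blue lower and grey not called. IGF1 (5.10) and IGF2 (−5.42) lie at opposite ends of the IGF axis, and DUSP6 (−4.61) is the lowest of the FGF and ERK genes.

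**Figure D4:**
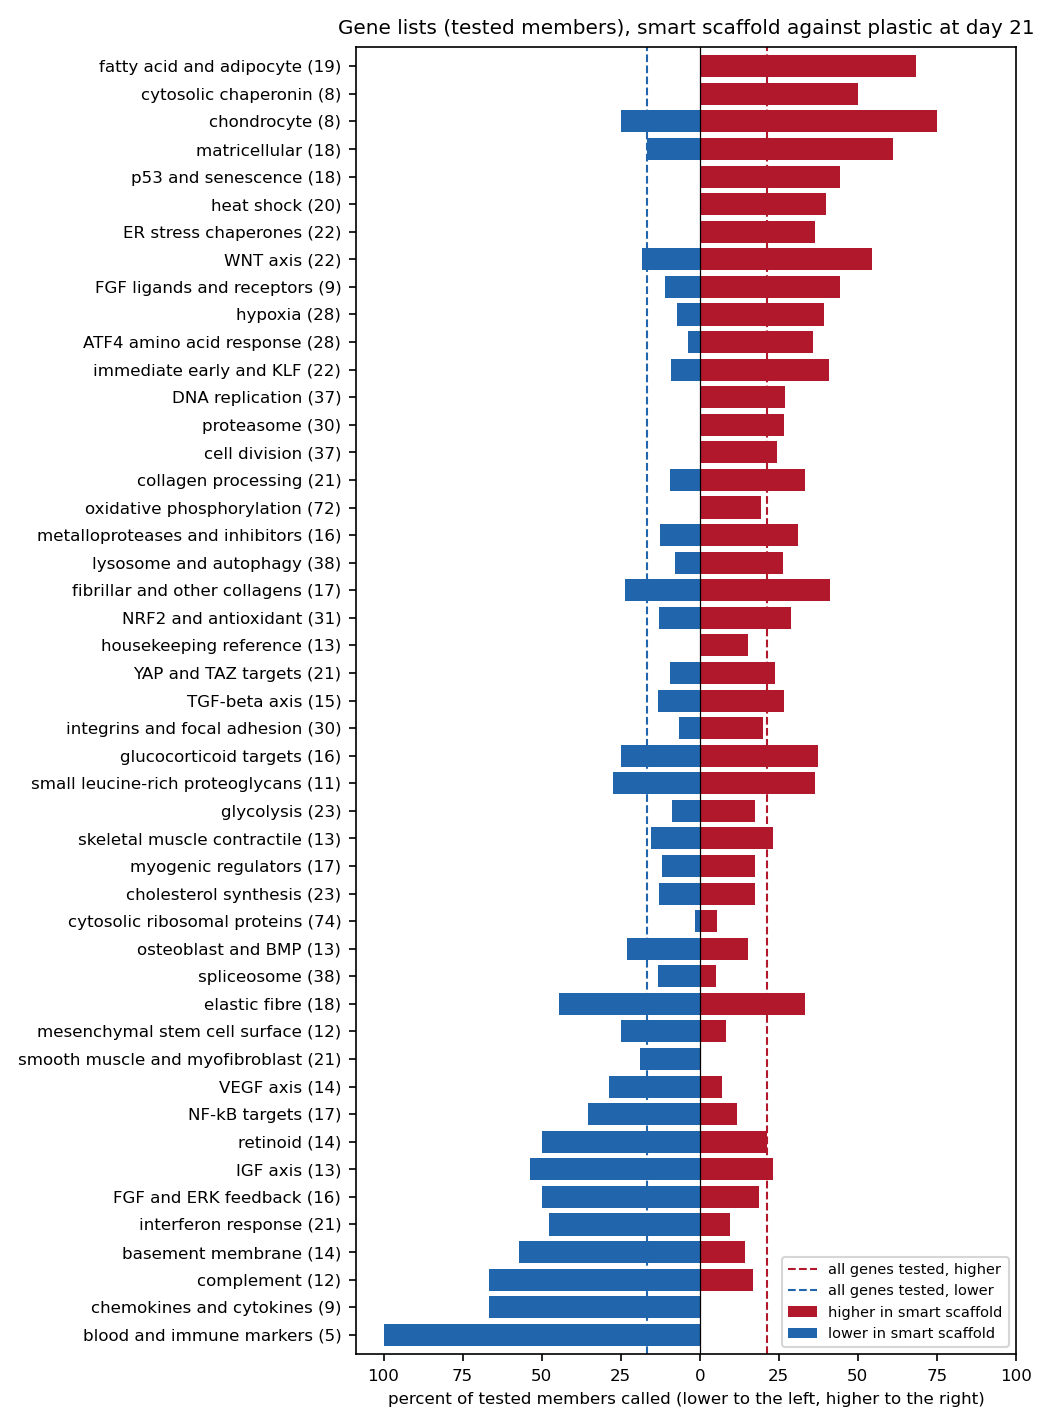
Percent of tested members of each gene list called higher (red, to the right) or lower (blue, to the left) on the smart scaffold relative to plastic, for lists with at least 5 tested members (number in parentheses); dashed lines mark all genes tested, at 21.4% higher and 16.6% lower. The fatty acid and adipocyte list stands well to the right of its line (13 of 19 higher), and the complement (8 of 12) and chemokine lists (6 of 9) well to the left of theirs.

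The contractile apparatus was measured with markers of smooth muscle and myofibroblasts and of skeletal muscle. DES, desmin, had 10946, 11309 and 10679.5 normalized reads in the smart scaffold libraries, against 11838 and 14302 in the plastic libraries and was not called (log2 fold change −0.25 ± 0.18, adjusted p = 0.255). ACTA2, smooth muscle actin, had 60997, 65600.5 and 73262 on the smart scaffold, against 57802 and 59319.9 on plastic and was not called either (log2 fold change 0.18 ± 0.11, adjusted p = 0.175). The groups did not overlap for these genes, as for 73.8% of all tested genes, but the differences met neither the adjusted p nor the fold threshold. Of 21 smooth muscle genes 0 rose and 4 fell (median −0.72). Without the first plastic library 1 rose and 7 fell. The sum of the listed genes ran from 250067 to 294278 on the smart scaffold and from 323290 to 375698 on plastic. CALD1, caldesmon, had 8431, 9636 and 10063 on the smart scaffold, against 21329 and 39596 on plastic (log2 fold change −1.64 ± 0.20, adjusted p = 1.64e-06), LPP, a focal adhesion protein of smooth muscle, had 13.2, 34.7 and 51.7 on the smart scaffold, against 181 and 368 on plastic (log2 fold change −3.11 ± 0.43, adjusted p = 7.75e-06), and SYNPO2 and SMTN also fell (−2.09 and −1.35). The cytoplasmic actin gene ACTG1 had 45747, 44136 and 49437 on the smart scaffold, against 17272 and 9402 on plastic (log2 fold change 1.86 ± 0.18, adjusted p = 1.22e-07).

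Among 48 skeletal muscle contractile genes listed, 18 were in the table and 13 were tested, of which 3 rose and 2 fell. These shares, 23.1% and 15.4%, were near the 21.4% and 16.6% of all genes. Besides CASQ2, the cardiac actin ACTC1 (2.67) and myoglobin MB (2.11) rose. TNNT3, fast troponin T, had 0, 0 and 1.15 on the smart scaffold, against 73.1 and 72.2 on plastic, a ratio of 192-fold (95% counting interval 33.3 to 7665) lower, and the calcium pump ATP2A1 fell (−2.01). The myosin light chain MYL4 had 9.90, 12.1 and 14.9 on the smart scaffold, against 8.28 and 10.3 on plastic and was not called. Of 17 myogenic regulators 3 rose and 2 fell (1 without the second plastic library). Their shares, 17.6% and 11.8%, were below those of all genes. MYF6, a late myogenic factor, had 11.6, 17.4 and 19.5 on the smart scaffold, against 2.76 and 3.44 on plastic, a ratio of 5.67-fold (95% counting interval 1.82 to 28.5). MEF2A rose (1.80), and MEF2C (−1.18) and ID3 (−1.32) fell. MYOD1 and MYOG were not analysed here.

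The labelled cell type was checked against mesenchymal surface markers. NT5E had 258, 300.2 and 269 on the smart scaffold, against 166 and 209.6 on plastic, THY1 had 10753, 10447 and 9223 on the smart scaffold, against 16478 and 19765 on plastic and ENG had 616, 514 and 599 on the smart scaffold, against 2935 and 3879.5 on plastic, so all 3 defining markers were read in every library. ENG fell (log2 fold change −2.55 ± 0.16, adjusted p = 7.08e-10), CD44 rose (1.28), and CD34 and VCAM1 were lower (−3.05 and −3.42). CD34, which human mesenchymal stromal cells lack by definition, had 1.65, 0.868 and 0 on the smart scaffold, against 12.4 and 13.7 on plastic. It reached the minimum mean through plastic alone, so the direction of its change follows from having passed it. Listed markers summed to 25137 to 27616 on the smart scaffold and 32578 to 40328 on plastic.

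Lipid genes formed the list with the largest share of rises among those with more than 8 tested members: 13 of 19 rose and 0 fell, with a median log2 fold change of 1.58. The chondrocyte list, with 8 tested, had a larger share (75%, against 68.4%). Most of its rises, however, passed the minimum mean through the smart scaffold libraries alone. CIDEC, a lipid droplet fusion protein of fat cells, had 404, 256 and 315 normalized reads in the smart scaffold libraries, against 19.3 and 13.7 in the plastic libraries (log2 fold change 4.21 ± 0.33, adjusted p = 1.13e-08). PLIN1, the perilipin that coats adipocyte droplets, had 213, 136 and 114 on the smart scaffold, against 37.3 and 6.87 on plastic (log2 fold change 3.11 ± 0.52, adjusted p = 5.36e-05). LPL, lipoprotein lipase, had 121, 136 and 137 on the smart scaffold, against 24.8 and 13.7 on plastic (log2 fold change 2.76 ± 0.39, adjusted p = 9.39e-06). The plastic libraries differed severalfold from each other for PLIN1, and both stayed below the lowest smart scaffold library. The hormone-sensitive lipase LIPE (2.81), the fatty acid carriers FABP3 (2.49), FABP4 (1.75) and CD36 (1.60) and the desaturase SCD (1.84) rose. PPARG, the nuclear receptor that drives fat cell formation, had 398, 412 and 464 on the smart scaffold, against 767 and 577 on plastic (log2 fold change −0.65, adjusted p = 0.000467), and FASN, fatty acid synthase, had 764, 755 and 845 on the smart scaffold, against 1435 and 1447 on plastic (log2 fold change −0.87, adjusted p = 1.66e-06), both under the fold threshold. Cholesterol synthesis genes were called at shares near those of all genes: 4 of 23 were higher (17.4%, against 21.4%), led by SQLE (2.31) and MSMO1 (1.87). Another 3 were lower (13%, against 16.6%).

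Chondrocyte genes also rose, 6 of 8 tested, while 2 fell (median 2.68). Of the rises, ACAN, CILP2, CHAD and COMP averaged under 5 on plastic and passed the minimum mean through the smart scaffold alone. The direction of their change follows from having passed it. The link protein HAPLN1 had 89.1, 97.2 and 77.01 on the smart scaffold, against 11.04 and 0 on plastic (log2 fold change 4.67 ± 0.66, adjusted p = 1.05e-05), and aggrecan ACAN had 41.3, 54.7 and 42.5 on the smart scaffold, against 1.38 and 3.44 on plastic (log2 fold change 3.85 ± 0.51, adjusted p = 4.64e-06). CILP2 (3.17), CHAD (2.20) and PRG4 (1.60) rose, and the transcription factors SOX5 (−1.12) and SOX6 (−1.59) fell, a count of 1 without the second plastic library or without the first or the third smart scaffold library. The listed genes summed to 901 to 1152 on the smart scaffold and 340 to 406 on plastic. In the osteoblast and BMP list 2 of 13 rose and 3 fell, with 4 rises without the first or second plastic or the first smart scaffold library. The BMP antagonist CHRD had 130.4, 108 and 108 on the smart scaffold, against 6.90 and 3.44 on plastic (log2 fold change 4.29 ± 0.31, adjusted p = 4.14e-09). MSX1, a homeobox factor of mesenchyme, had 69.3, 62.5 and 51.7 on the smart scaffold, against 494 and 454 on plastic (log2 fold change −2.94 ± 0.16, adjusted p = 1.5e-10).

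WNT signalling genes gave 12 rises and 4 falls among 22 tested (median 1.11). With the ligand amplifiers RSPO1 and RSPO2 (4.21) rose the ligands WNT9A (5.45), WNT5B (1.17) and WNT5A (1.05) and the receptors FZD1 (4.11) and FZD6 (2.44). LEF1, a nuclear effector, had 6.60, 9.54 and 9.20 on the smart scaffold, against 0 and 0 on plastic, a few reads against none, and its relative TCF7 rose (3.55). The inhibitors split: NKD1, DKK1 (2.26) and DKK3 (2.03) were higher and DKK2 (−3.48) lower. SFRP4, a secreted decoy for WNT, had 855, 554 and 729.9 on the smart scaffold, against 14226 and 13858 on plastic (log2 fold change −4.32 ± 0.18, adjusted p = 4.75e-12).

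In the TGF-beta axis 4 of 15 rose and 2 fell (26.7% and 13.3%, against 21.4% and 16.6% of all genes). The ligand TGFB2 had 444, 513 and 326 on the smart scaffold, against 70.4 and 82.5 on plastic (log2 fold change 2.45 ± 0.23, adjusted p = 1.1e-07), and FSTL1 rose (1.88). YAP and TAZ targets gave 5 rises and 2 falls among 21 tested, shares near those of all genes. ANKRD1, a stretch-responsive ankyrin repeat protein, had 819, 977 and 1126 on the smart scaffold, against 62.1 and 109.96 on plastic (log2 fold change 3.53 ± 0.25, adjusted p = 4.03e-09), FOXF2 had 42.9, 31.2 and 32.2 on the smart scaffold, against 1.38 and 0 on plastic, a ratio of 34.8-fold (95% counting interval 6.08 to 1389), and AMOTL1 fell (−2.96). Integrin and focal adhesion genes, also near the background, gave 6 rises and 2 falls among 30 tested. The laminin receptor subunit ITGA7 of muscle had 1588, 1856 and 1807 on the smart scaffold, against 109 and 155 on plastic (log2 fold change 3.74 ± 0.14, adjusted p = 2.3e-12). The collagen receptor subunit ITGA11 had 8.25, 17.4 and 9.20 on the smart scaffold, against 1.38 and 0 on plastic, a ratio of 12.8-fold (95% counting interval 2.13 to 519).

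Retinoid genes gave 7 falls and 3 rises among 14 tested. RARRES1, a retinoid-responsive membrane protein, had 18149, 17714 and 19894 on the smart scaffold, against 1090.3 and 1113 on plastic (log2 fold change 4.07 ± 0.12, adjusted p = 1.98e-13). CRABP2 (3.19) and the retinoic acid hydroxylase CYP26B1 (3.55) rose, whereas CRABP1, the receptor RARB (−3.86) and RARRES2 (−3.22) fell. Targets of the glucocorticoid receptor, whose ligand dexamethasone was in all media, gave 6 rises and 4 falls among 16 tested. GLUL, glutamine synthetase, had 429, 402 and 449 on the smart scaffold, against 78.7 and 68.7 on plastic (log2 fold change 2.52 ± 0.14, adjusted p = 2.33e-10), and FKBP5 (2.10) and TSC22D3 (2.06) rose. MT2A, a metallothionein, had 46.2, 42.5 and 42.5 on the smart scaffold, against 618 and 594 on plastic (log2 fold change −3.76 ± 0.14, adjusted p = 1.22e-12), and MT1E fell (−3.90); reads of these similar genes may be shared between copies.

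Immune genes were lower in most lists. Of 12 complement genes 8 fell and 2 rose (median −1.84). SERPING1, the inhibitor of complement C1, had 61.1, 59.00 and 54.02 normalized reads in the smart scaffold libraries, against 1027 and 632 in the plastic libraries (log2 fold change −3.77 ± 0.40, adjusted p = 3.83e-07). C4A, a central component, had 6.60, 4.34 and 4.60 on the smart scaffold, against 96.6 and 85.9 on plastic (log2 fold change −3.92 ± 0.46, adjusted p = 1.36e-06), and CFB (−3.71), C1S (−2.66), C1R (−2.21) and CLU (−2.06) fell. C3 was not called (log2 fold change −0.50, adjusted p = 0.0863), and the membrane regulator CD46 rose (1.61). Of 9 chemokines and cytokines 6 fell and 0 rose, with 3 falls and 1 rise without the first plastic library. CXCL12, a stromal chemokine that retains blood progenitors, had 1164, 1039 and 1221 on the smart scaffold, against 14477 and 11336 on plastic (log2 fold change −3.49 ± 0.13, adjusted p = 1.45e-12). CXCL5, which attracts neutrophils, had 129, 101 and 106 on the smart scaffold, against 511 and 536 on plastic (log2 fold change −2.23 ± 0.19, adjusted p = 2.78e-08).

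Interferon response genes gave 10 falls and 2 rises among 21 tested, the rises numbering 4 without the first plastic library. IFI27 had 18.2, 6.07 and 5.75 on the smart scaffold, against 642 and 553 on plastic (log2 fold change −5.94 ± 0.51, adjusted p = 3.72e-08). The transcription factor IRF1 had 37.97, 21.7 and 28.7 on the smart scaffold, against 328 and 296 on plastic (log2 fold change −3.39 ± 0.25, adjusted p = 7.53e-09). ISG15, a ubiquitin-like protein, had 94.1, 29.5 and 14.9 on the smart scaffold, against 447 and 134 on plastic (log2 fold change −2.78 ± 0.58, adjusted p = 0.000516). The first smart scaffold library was the highest of its group for both IFI27 and ISG15, and it still lay below the lower plastic library. NF-kB targets fell in 6 of 17 cases, among them TNFAIP2, which had 0, 0 and 0 on the smart scaffold, against 8.28 and 27.5 on plastic (at least 12.1-fold lower), and the adhesion molecule VCAM1, which had 16.5, 12.1 and 16.1 on the smart scaffold, against 247 and 113 on plastic (log2 fold change −3.42 ± 0.42, adjusted p = 2.02e-06). BIRC3, an inhibitor of apoptosis, had 23.1, 9.54 and 11.5 on the smart scaffold, against 0 and 0 on plastic (at least 4.51-fold higher), and PTGS2 also rose (3.39). SAA3, an acute phase serum amyloid, had 29.7, 17.4 and 31.04 on the smart scaffold, against 472 and 219.9 on plastic (log2 fold change −3.62 ± 0.42, adjusted p = 1.15e-06), and its close copy M-SAA3.2 had 0, 0 and 5.75 on the smart scaffold, against 466 and 216 on plastic (log2 fold change −7.40 ± 0.72, adjusted p = 1.42e-07). The split of reads between these similar genes is uncertain.

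Markers of blood and immune cells were lower as well, in 5 of 5 tested. Of these CD14, LAPTM5, CD68 and FCER1G averaged under 5 on the smart scaffold and reached the minimum mean through plastic alone. The direction of their change follows from having passed it. CD14, a monocyte receptor, had 4.95, 3.47 and 5.75 on the smart scaffold, against 56.6 and 65.3 on plastic (log2 fold change −3.45 ± 0.43, adjusted p = 2.59e-06). LAPTM5, a lysosomal protein of blood cells, had 0, 1.74 and 0 on the smart scaffold, against 17.9 and 30.9 on plastic, a ratio of 28.5-fold (95% counting interval 6.998 to 249.7) lower. CD68 (−1.85), FCER1G (−1.75) and CSF1R (−1.22) were the others. Their summed level was 25.3 to 33.8 on the smart scaffold, against 130 to 179 on plastic. It was 27.1 to 37.8 on the media scaffold, 33.6 to 35.2 in plastic cultures of day 0 and 32.1 to 84.2 in those of day 3. The defining marker PTPRC was not analysed here, and the part of these markers in the result was not tested.

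Proliferation genes were called higher about as often as all genes. Of 37 cell division genes 9 rose and 0 fell (median 0.45), a share of 24.3% against 21.4% of all genes. MKI67, a marker of cycling cells, had 75.9, 66.8 and 62.1 normalized reads in the smart scaffold libraries, against 23.5 and 20.6 in the plastic libraries (log2 fold change 1.59 ± 0.18, adjusted p = 6.73e-07). UBE2C, a ubiquitin enzyme of mitosis, had 135, 139 and 115 on the smart scaffold, against 38.6 and 34.4 on plastic (log2 fold change 1.80 ± 0.14, adjusted p = 1.21e-08). At day 0 on plastic they averaged 1605 ± 230.5 and 2445 ± 113 (SD, n = 3), far above both groups of day 21. CENPA, the centromeric histone, had 9.90, 26.03 and 12.6 on the smart scaffold, against 0 and 13.7 on plastic (log2 fold change 2.05 ± 0.73, adjusted p = 0.0227), overlapped between the groups and lost its call without the first plastic library (log2 fold change 0.11), without the second smart scaffold library (adjusted p = 0.0704) and in fits of the libraries of day 21 or of these groups alone (0.0618 and 0.116). DNA replication genes rose in 10 of 37 cases (27%, against 21.4% of all genes), or 6 without the second plastic library, and fell in 0. RRM1, a subunit of ribonucleotide reductase, had 145, 131 and 149 on the smart scaffold, against 23.5 and 20.6 on plastic (log2 fold change 2.63 ± 0.29, adjusted p = 6.29e-07). The helicase subunit MCM6 had 92.4, 98.04 and 94.3 on the smart scaffold, against 22.1 and 30.9 on plastic (log2 fold change 1.82 ± 0.20, adjusted p = 7.36e-07). Genes of p53 and senescence rose as well, in 8 of 18 cases with 0 falls. CDKN1A, the p21 inhibitor of the cell cycle, had 11399, 11413 and 10974 on the smart scaffold, against 2891 and 2756 on plastic (log2 fold change 2.00 ± 0.10, adjusted p = 6.5e-11), and TP53INP1 (2.78) and SESN1 (2.72) rose with it.

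Stress genes rose in several lists. Heat shock genes were higher in 8 of 20 cases and lower in 0. CRYAB, a small heat shock protein abundant in muscle and lens, had 9829, 8665 and 8943 normalized reads in the smart scaffold libraries, against 551 and 539 in the plastic libraries (log2 fold change 4.06 ± 0.15, adjusted p = 2.01e-12), and HSPH1 (3.26), HSPB8 (2.28) and BAG3 (1.87) rose. HSPA1A had 1512, 1579.9 and 1556 on the smart scaffold, against 1719.6 and 1495 on plastic and overlapped. Genes of endoplasmic reticulum stress rose in 8 of 22 cases with 0 falls. DNAJB9 had 266, 277 and 293 on the smart scaffold, against 46.9 and 34.4 on plastic (log2 fold change 2.76 ± 0.26, adjusted p = 8.06e-08) and HERPUD1 had 981, 914 and 1036 on the smart scaffold, against 419.5 and 289 on plastic (log2 fold change 1.48 ± 0.13, adjusted p = 3.94e-08), while HSPA5, the main chaperone of this compartment, had 2625, 2733 and 2809 on the smart scaffold, against 1507 and 1591 on plastic and stayed under the fold threshold (0.81). Amino acid response genes, which ATF4 controls, gave 10 rises and 1 fall among 28 tested. TRIB3 had 158, 193 and 149 on the smart scaffold, against 20.7 and 13.7 on plastic (log2 fold change 3.22 ± 0.21, adjusted p = 1.3e-09), ATF3 had 211, 207 and 200.004 on the smart scaffold, against 24.8 and 24.1 on plastic (log2 fold change 3.03 ± 0.14, adjusted p = 3.06e-11) and VLDLR had 702, 803 and 712 on the smart scaffold, against 26.2 and 34.4 on plastic (log2 fold change 4.57 ± 0.15, adjusted p = 6.34e-13). Immediate early and KLF genes rose in 9 of 22 cases, with KLF5 at 279, 376 and 329.9 on the smart scaffold, against 11.04 and 10.3 on plastic (log2 fold change 4.81 ± 0.16, adjusted p = 5.51e-13), and fell in 2, or 1 without the first or the second plastic or the third smart scaffold library.

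Antioxidant genes were higher in 9 of 31 cases and lower in 4; the quinone reductase NQO1 had 485, 469 and 479 on the smart scaffold, against 110.4 and 34.4 on plastic (log2 fold change 2.93 ± 0.30, adjusted p = 2.94e-07) and the extracellular peroxidase GPX3 fell (−3.61). Hypoxia genes gave 11 rises and 2 falls among 28 tested, the falls being ADM and STC1. LDHA, lactate dehydrogenase, had 3663, 4461 and 4021 on the smart scaffold, against 1013 and 553 on plastic (log2 fold change 2.43 ± 0.20, adjusted p = 2.38e-08). HK2, a hexokinase, had 11.6, 16.5 and 3.45 on the smart scaffold, against 1.38 and 0 on plastic, a ratio of 11.2-fold (95% counting interval 1.86 to 458). Of 23 glycolysis genes 4 rose, led by the lactate transporter SLC16A1 (2.76), and 2 fell, or 1 without the first plastic or the first smart scaffold library. Their shares, 17.4% and 8.7%, were below those of all genes. Oxidative phosphorylation genes gave 14 rises and 0 falls among 72 tested. Cytochrome c, CYCS, had 52.8, 107 and 98.9 on the smart scaffold, against 9.66 and 6.87 on plastic (log2 fold change 3.19 ± 0.26, adjusted p = 2.2e-08). NDUFS1, of complex I, had 178, 197 and 155 on the smart scaffold, against 34.5 and 48.1 on plastic (log2 fold change 2.08 ± 0.28, adjusted p = 5.64e-06). The share that rose, 19.4%, was near the 21.4% of all genes, while the 16.6% background of falls was not reached. Lists given with 0 falls held members with a lower value at an unadjusted p under 0.05 in limma: 10 for oxidative phosphorylation, 4 each for DNA replication and heat shock, 3 for p53, 2 each for cell division, proteasome and fatty acid genes, and 1 each for endoplasmic reticulum stress, the chaperonin and the reference genes. For smooth muscle and its 0 rises this number was 3, and for the chemokine list and its 0 rises it was 0. edgeR and DESeq2 called 0 genes in that direction in each of these lists.

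Protein turnover and synthesis were covered by several lists. Proteasome subunits rose in 8 of 30 cases, led by PSMC6 (2.24) and PSMD12 (2.11), and subunits of the cytosolic chaperonin in 4 of 8, led by CCT4 (2.12) and CCT8 (1.89), with no falls in either list. Of all genes 21.4% rose and 16.6% fell, so the proteasome share of rises, 26.7%, was near the background. Lysosome and autophagy genes gave 10 rises and 3 falls among 38 tested (26.3% and 7.89%), the rises again near the background. LAMP2, a lysosomal membrane protein, had 1106, 1199 and 1289 on the smart scaffold, against 221 and 155 on plastic (log2 fold change 2.69 ± 0.24, adjusted p = 6.26e-08). Of 74 ribosomal protein genes 4 rose, with RPL7 (1.68) and RPS3A (1.48) the furthest, and 1 fell, RPS9 (−1.24); these genes have many processed copies, so their counts are uncertain. Under array weights RPL7 and RPS3A lost their calls (adjusted p = 0.0732 and 0.119), and under quantile normalization RPS9 did (log2 fold change −0.98). Spliceosome genes fell in 5 of 38 cases (13.2%, under the 16.6% of all genes), with SRSF11 (−2.20) and RBM25 (−2.08) the furthest. They rose in 2 (5.26%), or 1 without the third smart scaffold library. Of 13 common reference genes 2 rose and none fell; the number was 4 after rescaling to equal totals, under TMM and without the first plastic library, and 0 in edgeR, in DESeq2 and without the second plastic library. GAPDH had 19542, 20403 and 21661 on the smart scaffold, against 17396 and 23281 on plastic and ACTB had 52360.2, 54299 and 56468 on the smart scaffold, against 47809 and 62708 on plastic, overlapping in both cases. Epithelial and neural markers were few, at 1 and 3 tested; MAP2, a neuronal microtubule protein, rose (2.52). Limma called 0 of these markers lower, edgeR 1 epithelial marker, and DESeq2 1 epithelial and 1 neural marker, and in limma 0 were lower at an unadjusted p under 0.05.

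S100A4, a calcium-binding protein of fibroblasts, was also lower, with 64033, 61646 and 62139 on the smart scaffold, against 134941 and 175654 on plastic (log2 fold change −1.30 ± 0.16, adjusted p = 2.74e-06).

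A direct test of the smart against the media scaffold asked where the way of growth factor supply went with a difference on the same kind of substrate. It called 96 genes (0.88% of those tested), 7 higher on the smart scaffold (0.0642%) and 89 lower (0.816%), with 1418 genes at an unadjusted p under 0.05 (limma). Libraries of the smart and media scaffolds were fully separated for 20.3% of genes. The count was 60, 55 and 59 without the first, the second or the third media scaffold library, 58 without the second smart scaffold library and 176 under array weights. This comparison shares the smart scaffold libraries with the one against plastic, so the values of each are given side by side.

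CXCL14, a chemokine of epithelia and stroma, had 8.25, 13.01 and 10.3 on the smart scaffold, 149, 207, 275 and 199 on the media scaffold and 8.28 and 3.44 on plastic (smart over media scaffold, log2 fold change −4.16 ± 0.33, adjusted p = 2.47e-06). SCARA5, a scavenger receptor for ferritin, had 165, 72.9 and 90.8 on the smart scaffold, 1006, 931, 1086 and 724 on the media scaffold and 3442 and 2041 on plastic (log2 fold change −3.16 ± 0.27, adjusted p = 3.29e-06). For CXCL14 the media scaffold stood above both other groups, whereas for SCARA5 it stood between them. A2M had no reads on the smart scaffold, 6.57, 6.96, 6.48 and 7.90 on the media scaffold and 105 and 61.9 on plastic, at least 6.07-fold lower on the smart than on the media scaffold. CHI3L1 had 21.5, 24.3 and 20.7 on the smart scaffold, 160.039, 191, 137 and 115 on the media scaffold and 2203 and 1801 on plastic (log2 fold change −2.69 ± 0.26, adjusted p = 1.29e-05). ESM1 had 23.1, 28.6 and 36.8 on the smart scaffold, 199, 173, 177 and 156 on the media scaffold and 1238 and 931 on plastic (log2 fold change −2.56 ± 0.17, adjusted p = 4.82e-07). COX4I2, a cytochrome oxidase subunit, had 8.25, 6.07 and 4.60 on the smart scaffold and 26.3, 33.8, 40.5 and 128 on the media scaffold (log2 fold change −2.73 ± 0.53, adjusted p = 0.00972), a call lost without the second or the third smart scaffold library (adjusted p = 0.0561 and 0.0604). SAA3 (−2.47, limma adjusted p = 0.000898) and M-SAA3.2 (−2.47, 0.0405) were also lower. M-SAA3.2 had 0, 0 and 5.75 on the smart scaffold and 5.74, 9.95, 19.4 and 6.91 on the media scaffold. Its libraries overlapped, and with so few reads its fitted fold change depends on the added 1.

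In the supplied growth factors' own axes, 3 of 13 IGF axis members were lower on the smart than on the media scaffold. They were the binding proteins IGFBP3 (−1.06, limma adjusted p = 0.00136), IGFBP5 (−1.22, 0.00231) and IGFBP6 (−1.13, 0.0492), the last just under the threshold. In the VEGF axis 3 of 14 were lower: ESM1, ANGPT1 (−1.51, limma adjusted p = 0.0267) and PGF (−1.15, 0.0406). PGF had 49.5, 29.5 and 49.4 on the smart scaffold, 91.1, 109, 97.2 and 79.96 on the media scaffold and 20.7 and 27.5 on plastic. Of the 16 FGF and ERK genes 1 was called, SPRY1 (−1.09, limma adjusted p = 0.00768). Apart from that of ESM1, these calls were not followed singly through the alternative runs. DUSP6 had 59.4, 66.8 and 55.2 on the smart scaffold and 71.4, 90.5, 61.6 and 97.7 on the media scaffold, which was not called (log2 fold change −0.38 ± 0.15, adjusted p = 0.241).

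Complement and chemokine genes took part as well, with SERPING1 (−2.07) and C1S (−1.58) lower among 12 complement genes and CXCL14, CXCL5 (−1.57) and CXCL12 (−1.26) lower among 9 chemokines and cytokines. The adhesion molecule VCAM1 (−2.12) and the lipocalin APOD (−2.40) were lower too. Elastic fibre genes gave 3 lower calls of 18: MFAP5 (−1.50), FBLN1 (−1.52) and EFEMP1 (−1.38).

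Of the 7 genes higher on the smart than on the media scaffold 5 are described here. HSPB7 had 801, 919 and 776 on the smart scaffold, 364, 346, 358 and 477 on the media scaffold and 6.90 and 10.3 on plastic (log2 fold change 1.11 ± 0.15, adjusted p = 0.000453). The media scaffold libraries lay between the smart scaffold and the plastic libraries. The adhesion protein NECTIN1 (1.03), TGFBI (1.02) and the calcium channel TRPC4 (1.08) were near the fold threshold and dropped under it when single libraries were left out, TGFBI without the first or second media scaffold or the first smart scaffold library, TRPC4 without the second media scaffold or the first smart scaffold library and NECTIN1 without the first or second media scaffold library. All 3 were also under it with a pseudocount of 4 (0.99 each), and TGFBI under array weights (0.996). ZCCHC4 (1.30) had few reads and lost its call when any library of these groups was left out (adjusted p = 0.0665 to 0.188), in edgeR (0.0832) and with the replicate block (0.149), among others.

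**Figure D5:**
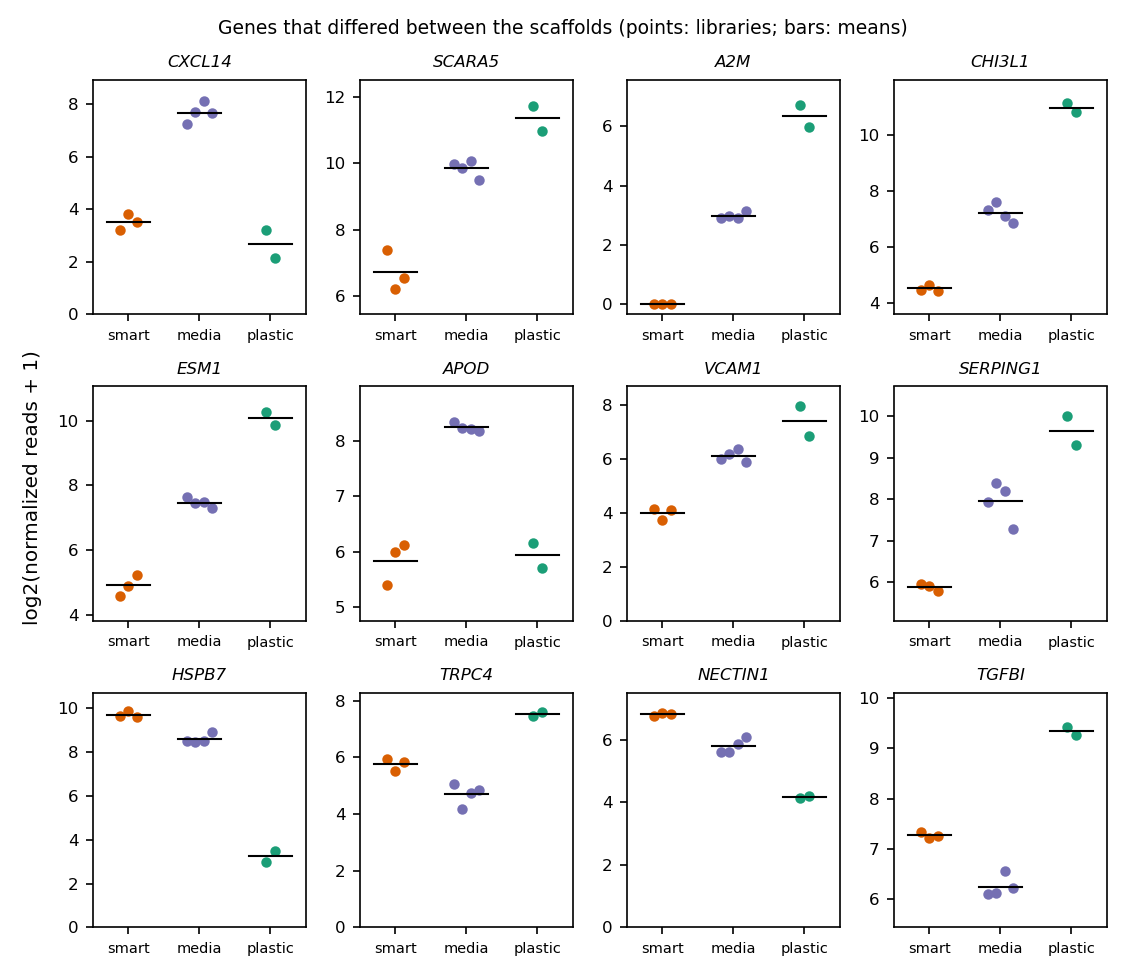
Log2(normalized reads + 1) in each library of day 21 for 12 genes called between the scaffolds, with the smart scaffold at the left, the media scaffold in the middle and plastic at the right; points are libraries, bars are group means, and each panel has its own vertical range. The first 8 genes are lower on the smart than on the media scaffold and the last 4, from HSPB7 on, are higher.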

How the data were processed

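RNA from bovine cells was counted by MARS-seq from PureLink total RNA, per the labels' protocols. The submitters' processing notes list cutadapt, STAR, HTSeq, DESeq and the build ARS-UCD1.2, without versions; use of molecular identifiers and of strand: not given in the sources used here. The deposited table holds a normalized signal, read counts that the authors divided by a scaling factor per library. Divided by what 1 read is worth, 100% of these values came out whole within 0.1 (largest distance 0.000172), and the recovered reads served for depth, floors, edgeR 4.0.16 and DESeq2 1.42.0. They totalled 2197356 to 15483745 reads per library. Another 2 value columns could be tied to no sample and were left out, and the scaffold cells of day 0 were not analysed here. No symbol is given for 1498 genes and 33 symbols are shared. The labels give no batch or date.

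The log2(value + 1) values went into limma 3.58.1 (R 4.3.3), with trend and robust variances, in 1 fit of 15 libraries with a mean per group. Tests were two-sided, and fold changes understate low genes. p-values rest on the spread between libraries. Floors are 3 reads over a group, and 95% intervals are exact; both cover counting error only. Genes with symbols were named by rule. From called genes whose libraries did not overlap came the 12 largest rises and falls and the 6 of highest mean value in each direction. The 2 largest changes of each list with at least 3 called members were named whether or not libraries overlapped. DES, ACTA2, COL1A1, MKI67 and all tested members of the IGF, FGF ligand and receptor, and VEGF lists were added, as were the 8 largest changes between the scaffolds in each direction. A gene that the rule names is not reported here. Other list members named beside them were picked after their values were seen. The comparison, its members and the 50 lists were chosen with earlier results of these data known; 13 listed symbols were matched through RefSeq synonyms (assembly ARS-UCD2.0, names only). The fit was tested on simulated data. Alternatives covered the pseudocount, the minimum mean, scaling, the libraries fitted, variance model, tool, replicate block and leaving out each library.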

Additional observations from a re-analysis of the deposited data

Results flagged for a closer look

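The test of smart against media scaffold is also the test of whether their differences from plastic are unequal, and 29 named genes differed. Genes named for the largest changes between the scaffolds were picked by this same test, so the count is no independent result. Of all tested genes 0.88% were called. Lower on the smart scaffold, as log2 fold changes over the media scaffold, were CXCL14 (−4.16), SCARA5 (−3.16), A2M (−2.99), COX4I2 (−2.73), CHI3L1 (−2.69), ESM1 (−2.56), M-SAA3.2 (−2.47), SAA3 (−2.47), APOD (−2.40), ADAMTS15 (−2.31), VCAM1 (−2.12) and SERPING1 (−2.07). Smaller negative values were those of SST (−1.79), MSMP (−1.70), CXCL5 (−1.57), ANGPT1 (−1.51), MFAP5 (−1.50), CXCL12 (−1.26), IGFBP5 (−1.22), MT2A (−1.22), PGF (−1.15), IGFBP6 (−1.13), SPRY1 (−1.09) and IGFBP3 (−1.06). MSMP had 0 reads on the smart scaffold and is at least 2.16-fold lower there than on the media scaffold. Higher were ZCCHC4 (1.30), HSPB7 (1.11), TRPC4 (1.08), NECTIN1 (1.03) and TGFBI (1.02).

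In the media scaffold group, the only group of day 21 with 4 libraries, 13 of 157 named genes had a library far from the other three by Dixon's criterion, which chance alone meets for about 1 gene in 20. In 10 of them it was the fourth library. It was the highest of its group in ACTA2 (56853), ANKRD1 (926), COX4I2 (128), HSPB7 (477), IGF1 (68.1), NKD1 (397) and UBE2C (175), and the lowest in FGF18 (15.8), KLB (25.7) and LOXL1 (1372). The first media scaffold library stood apart in FGF5 (23.8), and the second in HERPUD1 (911) and RPS9 (13883).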

How the results depend on the processing

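Calls between smart scaffold and plastic numbered 3290 to 4620 under all alternatives, against 4144, with the lowest under a minimum mean of 20 and the highest without a filter. Leaving out 1 library gave 3601 to 4530, edgeR 3935 and DESeq2 3820. Of the 161 results for named genes, 140 kept their call and direction under every alternative run. Among single values 61 lost the call, 7 gained it and 0 turned round. For smart against media scaffold, these results cover only the genes named for the largest changes there. Other calls in that comparison were not followed singly. Between the scaffolds, 96 calls became 176 under array weights (16 higher, 160 lower) and 55 to 88 without 1 library of these groups, with 3 to 9 higher and 52 to 79 lower; the 7 higher became 11 under quantile normalization and 14 in a fit of the 2 groups alone. The cause was not tested. Same-numbered smart scaffold and plastic libraries deviated together at a correlation of 0.0167 and 0.0441, and smart and media scaffold libraries at 0.00612 to 0.0249. Differently numbered smart and media scaffold libraries ranged from −0.0733 to 0.0609. The deviations of 2 plastic libraries mirror each other, so this check cannot exclude a pairing by replicate number. With the replicate number as a block, the counts were 4075 against plastic (2290 higher, 1785 lower) and 77 between the scaffolds (6 higher, 71 lower). With 2 plastic libraries, the smaller of 2197356 reads, changes of genes with few reads are the least precise.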

Other observations

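Some genes without a symbol changed as far as the named ones. ENSBTAG00000016738 had 0 reads in the smart and the media scaffold libraries, against 222 and 241 normalized reads on plastic, and ENSBTAG00000040392 had 0, 0.868 and 0 on the smart scaffold, against 129.7 and 144 on plastic. ENSBTAG00000039967 had 52.8, 74.6 and 68.97 and ENSBTAG00000004237 had 49.5, 53.8 and 66.7 on the smart scaffold, with 0 reads of either on plastic. These were chosen as the 2 largest fitted changes in each direction. The files give them no name.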
